A study of Mus musculus with 20 samples.

Results

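The macrophage and complement C1q genes described here are 9 of the 24315 genes in each of the expression tables: C1qa, C1qb, C1qc, Vcam1, Mrc1, Cd68, Adgre1, Csf1r and Cd5l. They were chosen by name because macrophage markers were high in the LSK table in only one of the mice lacking both Bcor and Dnmt3a. RNA was sequenced from sorted bone marrow cells of C57BL/6 mice with 4 genotypes. LSK cells (Lin-/Sca1+/Kit+) hold the stem cells and early progenitors, and MEP cells (Lin-/Sca1-/Kit+, CD34- and low or negative for the Fc gamma receptors II and III) are the progenitors of megakaryocytes and red cells. Each cell type had 3 libraries from wild type mice (WT), 3 from Dnmt3a-/- mice, 2 from Bcor-/- mice and 2 from Bcor-/-Dnmt3a-/- mice, called the double knockout below. Each mouse gave an LSK and a MEP library, so the cell types are not independent. In each cell type the label of 1 Bcor-/- library named 2 mice. Deletion was driven by Mx1-Cre, a Cre that interferon induces after injection of pIpC and that is active beyond blood cells. In the WT mice neither gene was deleted. The labels gave neither the age of the mice nor a stage of disease, while the study calls the double knockout mice of its RNA-seq comparison leukemic.

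C1qa, C1qb and C1qc encode the A, B and C chains of C1q, which starts the classical complement pathway when it binds antibody or dying cells. Most complement proteins are made in the liver, whereas C1q is made mainly by tissue macrophages and dendritic cells. In the bone marrow, macrophages that carry VCAM1 and the F4/80 antigen sit at the centre of erythroblastic islands, where they hold maturing red cells and take up their nuclei, and their growth depends on the receptor CSF1R.

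Promoter sequence from RefSeq (GRCm38.p6) was matched by symbol for 5 of the 9 genes. The 3 windows of 250 bases before the annotated start are shown, on the strand of the gene, because C1qb, C1qc and Cd5l were among the genes that moved together from library to library. Capitals mark matches on either strand to GAGGAA, a core bound by PU.1 and other ETS factors, and to TGCTGA, a core recognised by MAF factors. The windows lie at chr4:136886201-136886450 on the minus strand, chr4:136892915-136893164 on the minus strand and chr3:87357631-87357880 on the plus strand. C1qb, C1qc and C1qa are neighbours on chromosome 4.
C1qb: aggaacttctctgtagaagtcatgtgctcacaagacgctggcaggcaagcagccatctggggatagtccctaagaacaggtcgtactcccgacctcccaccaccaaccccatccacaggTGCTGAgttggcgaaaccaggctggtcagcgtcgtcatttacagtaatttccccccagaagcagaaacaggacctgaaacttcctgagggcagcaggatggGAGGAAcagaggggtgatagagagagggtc
C1qc: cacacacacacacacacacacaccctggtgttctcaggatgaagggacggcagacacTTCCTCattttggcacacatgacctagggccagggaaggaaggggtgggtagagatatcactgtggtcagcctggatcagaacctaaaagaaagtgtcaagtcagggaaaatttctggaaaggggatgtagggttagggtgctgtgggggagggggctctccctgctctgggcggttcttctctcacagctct
Cd5l: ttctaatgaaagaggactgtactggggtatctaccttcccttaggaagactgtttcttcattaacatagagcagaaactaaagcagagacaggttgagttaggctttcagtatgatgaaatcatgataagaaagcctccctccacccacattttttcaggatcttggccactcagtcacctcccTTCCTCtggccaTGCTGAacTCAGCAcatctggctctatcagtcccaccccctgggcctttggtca
GAGGAA was found 30 bases before the start of C1qb, 193 before C1qc and 66 before Cd5l, and also in the windows of Mrc1 and Cd68. Of 32536 RefSeq promoter windows of the same length, 23.4% held it. TGCTGA was found 131 bases before the start of C1qb and 54 and 46 before that of Cd5l, and 16.1% of all windows held it. The marked matches did not overlap. The E-box CACGTG and AGATAA, held by 6.04% and 9.97% of all windows, were in none of the 5. AGATAA is only one of the forms of the GATA site, and other forms, which the C1qb and Cd5l windows hold, were not counted.

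Several measures of the libraries bear on these genes. Levels are given in FPKM, in which fragments are scaled by transcript length and library size. Depth was read from the steps between low values. Taking WT replicate 1 as 1, it ran from 0.789 to 1.32 in LSK and from 1 to 1.61 in MEP. Bcor RNA was at 29.5 to 32.4 FPKM in WT LSK and at 24.01 and 37.4 FPKM in the double knockout, and Dnmt3a RNA at 16.1 to 19.8 and at 10.4 and 10.9 FPKM. Whole-gene levels do not show whether an exon was lost. The double knockout LSK libraries went against their gate in Kit, at 47.7 and 19.4 FPKM against 148 to 174 FPKM in WT. The stem cell marker Cd34 was at 5.87 and 37.3 FPKM against 548 to 649.7 FPKM. Ly6a, the gene of Sca1, was not below every WT library in both. The double knockout MEP libraries departed from their gate too, with Kit at 38.1 and 20.2 FPKM against 76.98 to 83.5 FPKM in WT and Ly6a at 17.8 and 1.87 FPKM against 0 to 0.7899 FPKM. MEP markers summed there to 327 and 862 FPKM against 713 to 883 FPKM, so that replicate 1 was low and replicate 2 within the WT range. Values of the double knockout are therefore given for each library. In bulk RNA, fewer cells of a type and less RNA per cell cannot be told apart.

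In LSK the C1q genes were highest in replicate 1 of the double knockout and within or below the WT range in replicate 2. C1qa was measured at 22.02, 61.4 and 6.93 FPKM in WT, 3.85, 7.51 and 17.2 FPKM in Dnmt3a-/-, 56.5 and 36.98 FPKM in Bcor-/-, and 360.3 and 7.38 FPKM in the double knockout. C1qb was at 27.9, 64.8 and 9.55 FPKM in WT, 4.14, 8.32 and 19.4 FPKM in Dnmt3a-/-, 68.8 and 51.6 FPKM in Bcor-/-, and 409.9 and 7.302 FPKM in the double knockout. C1qc was at 22.1, 58.9 and 4.95 FPKM in WT, 2.72, 4.19 and 16.01 FPKM in Dnmt3a-/-, 51.4 and 38.97 FPKM in Bcor-/-, and 324 and 11.2 FPKM in the double knockout. For each chain replicate 1 of the double knockout lay above all other LSK libraries, and for C1qb replicate 2 lay below every WT library, so the double knockout enclosed WT.

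Vcam1, Mrc1, Adgre1 and Cd5l repeated that order. Vcam1, which encodes the ligand of the integrin alpha 4 beta 1 on erythroblasts and progenitors, was at 22.6, 60.5 and 7.35 FPKM in WT, 4.35, 17.1 and 23.3 FPKM in Dnmt3a-/-, 88.8 and 80.5 FPKM in Bcor-/-, and 154 and 12.1 FPKM in the double knockout. It was the only one of the 9 genes with both Bcor-/- libraries above every WT library. Mrc1, a mannose receptor of resident macrophages, was at 6.97, 18.03 and 1.46 FPKM in WT, 0.861, 3.704 and 6.02 FPKM in Dnmt3a-/-, 11.9 and 9.13 FPKM in Bcor-/-, and 69.7 and 1.04 FPKM in the double knockout. Adgre1, which encodes F4/80, was at 5.96, 13.4 and 1.57 FPKM in WT, 1.02, 2.95 and 3.25 FPKM in Dnmt3a-/-, 10.02 and 8.16 FPKM in Bcor-/-, and 46.95 and 3.79 FPKM in the double knockout. Cd5l, a scavenger protein secreted by macrophages, was at 6.96, 19.3 and 2.08 FPKM in WT, 0.396, 3.47 and 4.102 FPKM in Dnmt3a-/-, 11.8 and 8.24 FPKM in Bcor-/-, and 150.5 and 2.76 FPKM in the double knockout. Replicate 2 of the double knockout was inside the WT range for Vcam1, Adgre1 and Cd5l and below it for Mrc1.

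Of the remaining genes, Csf1r kept the same order and Cd68 departed from it in replicate 2. Csf1r, the receptor for CSF1 and interleukin 34, was at 13.8, 26.2 and 9.34 FPKM in WT, 7.93, 13.1 and 10.6 FPKM in Dnmt3a-/-, 23.04 and 30.9 FPKM in Bcor-/-, and 136 and 15.6 FPKM in the double knockout. Its replicate 2 value fell inside the WT range. Cd68, a lysosomal glycoprotein that monocytes and other phagocytes also carry, was at 34.2, 48.8 and 23.1 FPKM in WT, 19.8, 21.2 and 27.5 FPKM in Dnmt3a-/-, 32.5 and 32.9 FPKM in Bcor-/-, and 83.1 and 64.1 FPKM in the double knockout. It was the only one of the 9 with both double knockout LSK libraries above every WT library, which 25.5% of the 11952 LSK genes tested, whose mean reached 1 FPKM, shared. The genes were chosen on this contrast, so these LSK values are a description and were not tested.

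**Figure D1:**
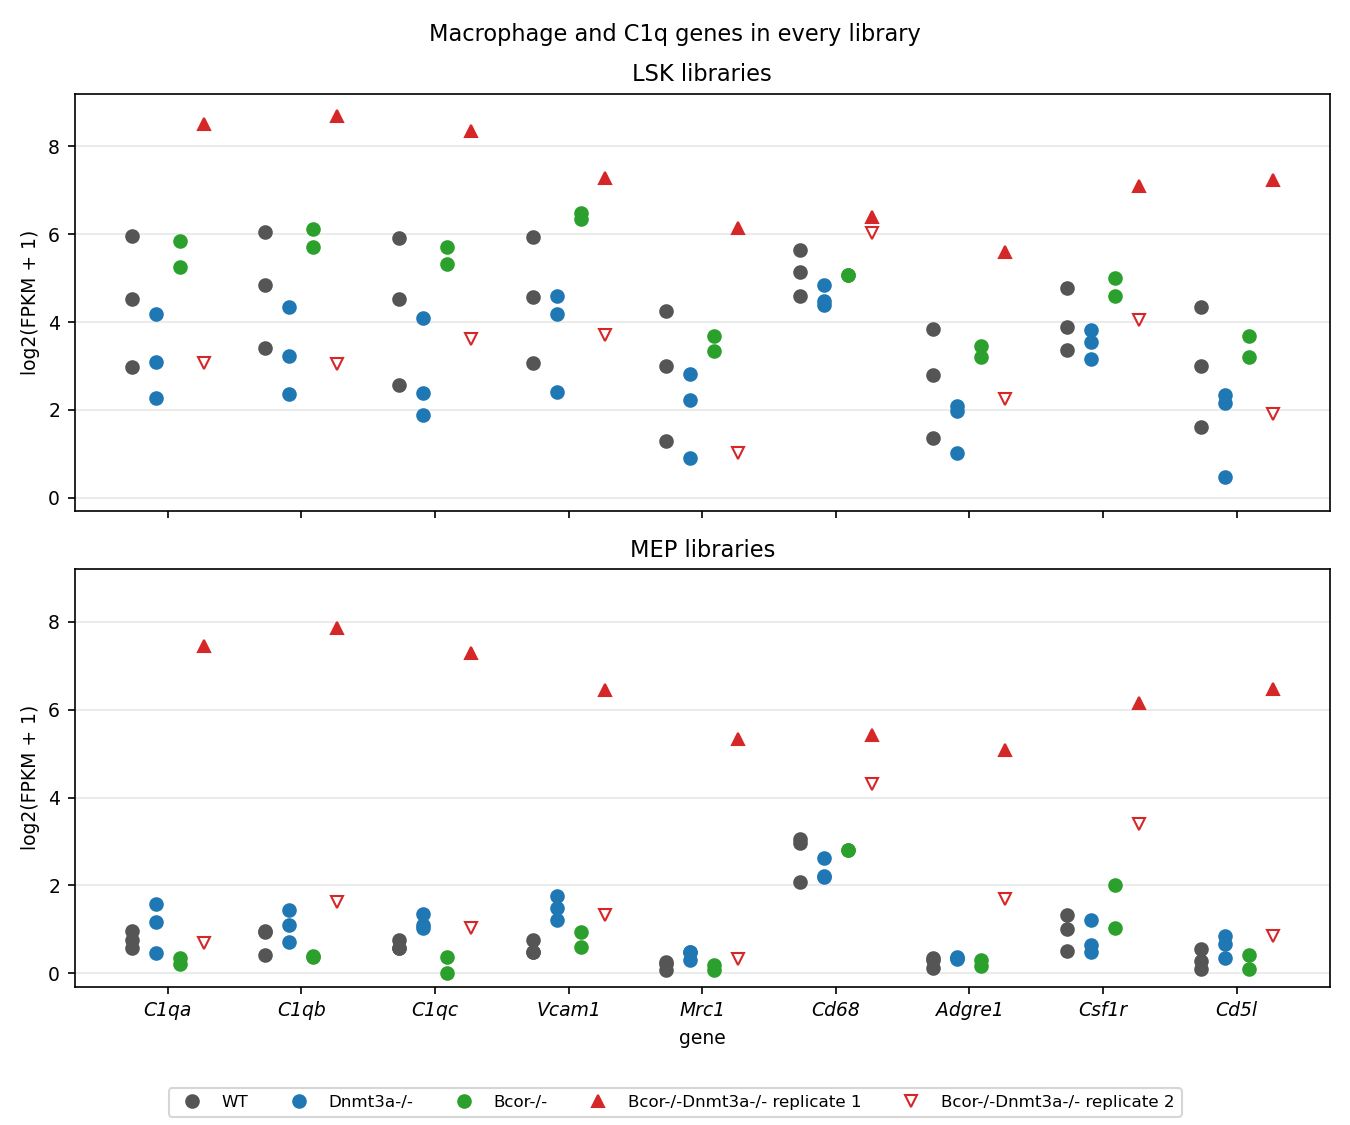
Level of the 9 genes in every library as log2(FPKM + 1), by genotype, for LSK and for MEP. Each symbol is 1 library, and replicate 1 of Bcor-/-Dnmt3a-/- is the highest symbol for all 9 genes in both cell types.

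Against the WT mean of each gene, replicate 1 of the LSK double knockout stood 2.35-fold (Cd68) to 15.9-fold (Cd5l) higher, with a median of 8.27-fold. Replicate 2 stood at 0.118 times (Mrc1) to 1.81 times (Cd68) the WT mean, with a median of 0.3898. Between the 2 mice, 8 of the 9 genes were more than 2-fold higher in replicate 1 in FPKM + 1, where 8.32% of all LSK genes tested were. Cd68 was the exception, at 1.296-fold. The choice of the genes used these values, and nothing further is read from the count.

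The WT mice also differed from one another. For all 9 genes WT replicate 2 was the highest WT library in LSK and WT replicate 3 the lowest, with a ratio between them of 2.11 (Cd68) to 12.4 (Mrc1). Markers of some other cells were also highest in WT replicate 2. In WT replicates 1 to 3 neutrophil markers summed to 3579, 13657 and 3595 FPKM, monocyte markers to 232, 666 and 306 FPKM, dendritic cell markers to 466, 909 and 358 FPKM and B cell markers to 44.4, 101 and 42.4 FPKM. The neutrophil and monocyte sums were lowest in replicate 1, and not in replicate 3 as the 9 genes were. For every other marker list the LSK sum of WT replicate 2 was 0.829 to 1.11 times the mean of WT replicates 1 and 3. The part of other cells in the difference between the WT mice was not tested. Dnmt3a-/- replicate 1 was the lowest of the 10 LSK libraries for all 9 genes. Both Bcor-/- libraries exceeded every Dnmt3a-/- library for all 9. No share of all genes was taken for this contrast, for the order of the WT libraries or for the lowest library. Nothing is read from these counts of 9.

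The makeup of the LSK libraries was compared by dividing each gene by C1q. Divided by the mean of the 3 chains in the same LSK library, C1qa ranged from 0.856 to 1.13 over the 10 libraries, C1qb from 0.847 to 1.34 and C1qc from 0.628 to 1.296. Vcam1 ranged from 0.422 to 2.57, lowest in double knockout replicate 1 and highest in Dnmt3a-/- replicate 2. Cd68 had the widest range, from 0.228 in double knockout replicate 1 to 7.44 in double knockout replicate 2. Each chain is part of the mean it is divided by, which draws its ratio towards 1, so the chains cannot be set against the other genes. These ratios are a description without a test.

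**Figure D2:**
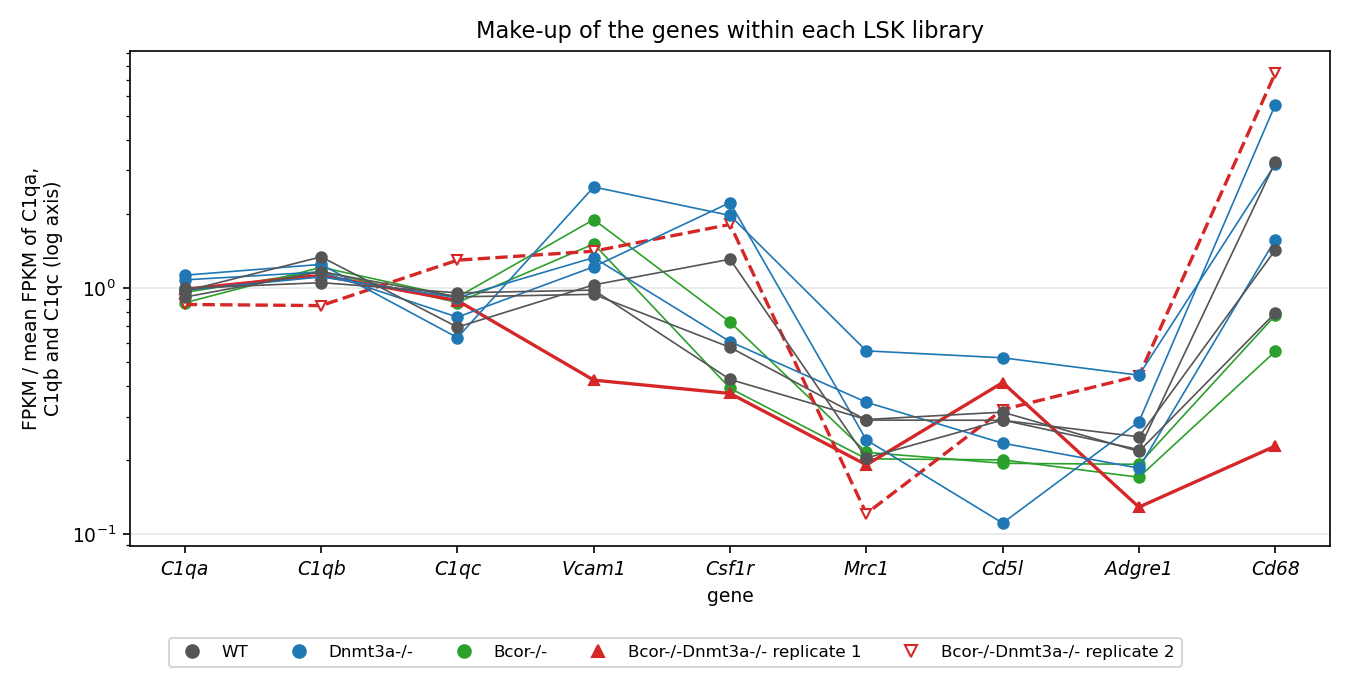
FPKM of each gene divided by the mean FPKM of C1qa, C1qb and C1qc in the same LSK library, on a log axis. The C1q chains, which are part of that mean, stay near 1, and Cd68 spreads from 0.228 to 7.44 between the Bcor-/-Dnmt3a-/- libraries.

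MEP libraries gave a second measurement in the same mice. The C1q genes were near the floor in all but one. C1qa was at 0.6804, 0.944 and 0.485 FPKM in WT, 0.373, 1.996 and 1.23 FPKM in Dnmt3a-/-, 0.158 and 0.281 FPKM in Bcor-/-, and 174 and 0.616 FPKM in the double knockout. C1qb was at 0.929, 0.966 and 0.331 FPKM in WT, 1.15, 1.703 and 0.631 FPKM in Dnmt3a-/-, 0.324 and 0.288 FPKM in Bcor-/-, and 231 and 2.103 FPKM in the double knockout. C1qc was at 0.702, 0.487 and 0.5003 FPKM in WT, 1.16, 1.54 and 1.06 FPKM in Dnmt3a-/-, 0 and 0.2902 FPKM in Bcor-/-, and 155 and 1.06 FPKM in the double knockout. The high library was replicate 1 of the double knockout for each chain, from the mouse whose LSK library was the high one, and replicate 2 of C1qa fell inside the WT range.

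Vcam1 in MEP was at 0.702, 0.399 and 0.408 FPKM in WT, 1.32, 1.83 and 2.37 FPKM in Dnmt3a-/-, 0.936 and 0.515 FPKM in Bcor-/-, and 86.9 and 1.51 FPKM in the double knockout. Mrc1 ran from 0.0497 to 0.411 FPKM in the 9 other libraries and stood at 39.4 FPKM in double knockout replicate 1. Cd5l ran from 0.0771 to 0.8102 FPKM in those 9 and stood at 87.4 FPKM in that one. Replicate 2 of the double knockout stood above every WT library for Vcam1, Mrc1 and Cd5l too, at 1.51, 0.254 and 0.802 FPKM, but not above every Dnmt3a-/- library.

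Adgre1, Csf1r and Cd68 were the genes with the highest ratio of replicate 2 to the WT mean in MEP. Adgre1 was at 0.268, 0.0931 and 0.238 FPKM in WT, 0.276, 0.246 and 0.304 FPKM in Dnmt3a-/-, 0.234 and 0.125 FPKM in Bcor-/-, and 32.7 and 2.25 FPKM in the double knockout. Csf1r was at 1.001, 0.425 and 1.502 FPKM in WT, 1.33, 0.408 and 0.555 FPKM in Dnmt3a-/-, 3.03 and 1.04 FPKM in Bcor-/-, and 69.9 and 9.49 FPKM in the double knockout. Cd68 was at 6.84, 3.195 and 7.28 FPKM in WT, 5.21, 3.59 and 3.65 FPKM in Dnmt3a-/-, 6.04 and 5.95 FPKM in Bcor-/-, and 42.1 and 18.95 FPKM in the double knockout. For these 3 genes and for C1qb both double knockout libraries stood above every other MEP library, with replicate 1 the higher. The share of all genes that did so was not taken, and nothing is read from their number.

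Over the 9 genes, replicate 1 of the MEP double knockout stood 7.30-fold (Cd68) to 345-fold (Cd5l) above the WT mean, and replicate 2 at 0.877 times (C1qa) to 11.3 times (Adgre1). All 9 were more than 2-fold higher in FPKM + 1 in replicate 1 than in replicate 2, where 12.1% of the 10933 MEP genes tested were. The ratio of the 2 libraries was smallest for Cd68, at 2.22, and largest for C1qa, at 282. Both double knockout libraries lay above every WT library for 8 of the 9 genes, all but C1qa, as they did for 24.6% of the genes tested. Of the 9 genes, 6 passed the filter only through replicate 1, so no weight is given to these counts of 9 and 8.

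**Figure D3:**
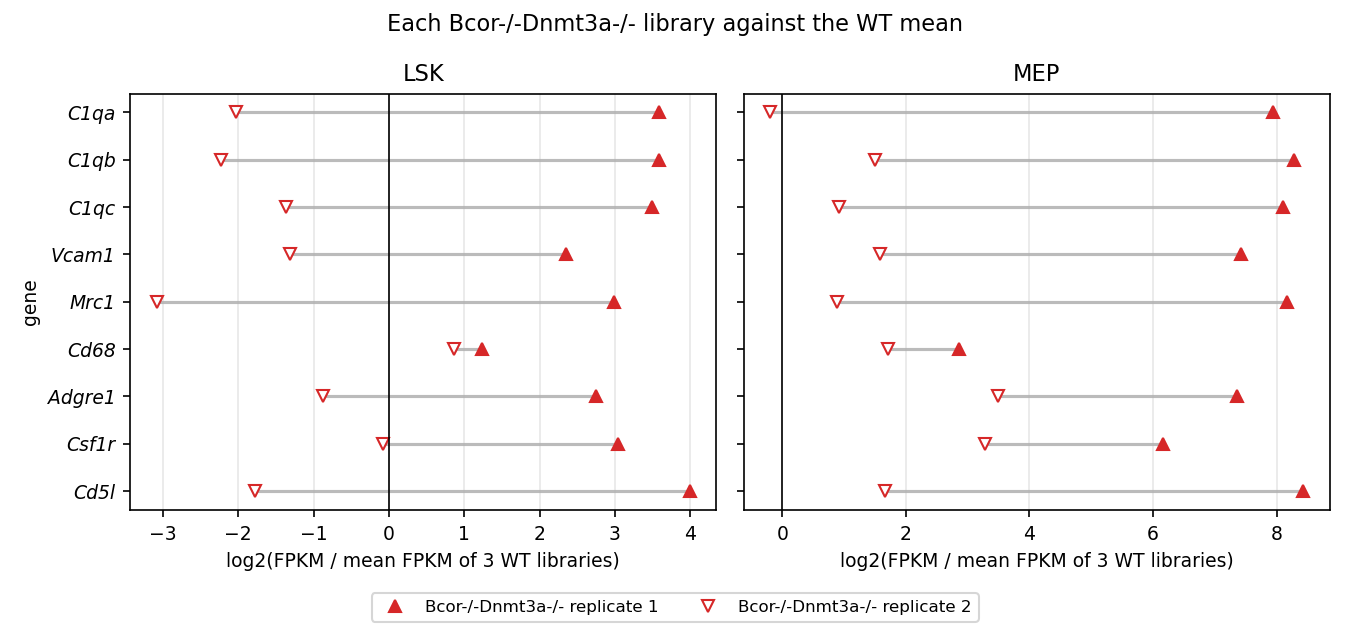
FPKM of each Bcor-/-Dnmt3a-/- library relative to the mean of the 3 WT libraries of the same cell type, on a log2 scale, drawn separately for LSK and MEP. In LSK replicate 1 lies above WT for all 9 genes and replicate 2 only for Cd68, whereas in MEP replicate 2 lies farthest above WT for Adgre1 and Csf1r.

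The tables were normalized separately, so levels set across them are approximate. With that limit, the 9 genes in double knockout replicate 1 were 1.43 to 2.09 times as high in LSK as in MEP. In WT mice the same ratio ran from 3.17 to 151, with a median of 30.05. Its median was 6.83 in Dnmt3a-/- mice, 94.9 in Bcor-/- mice and 3.47 in double knockout replicate 2. C1qc in Bcor-/- replicate 1 was at 0 in MEP and gave no ratio, so the Bcor-/- median is over 17 ratios. Outside double knockout replicate 1 many of these ratios divide by MEP values of few fragments.

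The double knockout was tested against WT in MEP with limma on log2(FPKM + 1), fitted to all 10 MEP libraries. The thresholds were those of the study, a p below 0.05, taken here before adjustment, and a change of over 1.5-fold. Of the 9 genes 8 were called higher, where 18.5% of all genes tested were, and 3 with Benjamini-Hochberg adjustment over all genes, where 14.1% were. Without double knockout replicate 1 only Vcam1, Cd68 and Csf1r have a mean of 1 FPKM, so the other 6 entered the test through the library in which they are high, and their count is not read as support. Cd68 rose by 2.18 ± 0.38 on the log2 scale (SE, limma adjusted p = 0.00377), and by 1.62 without replicate 1 (limma adjusted p = 0.00564). Csf1r rose by 3.82 ± 0.71 (SE, limma adjusted p = 0.00503), and by 2.45 without replicate 1 (limma adjusted p = 0.00254). Without that library the remaining double knockout sample is assumed to vary like the other groups.

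Vcam1 passed the unadjusted threshold in MEP, at 3.31 ± 1.16 (log2, SE, limma adjusted p = 0.0569), and its difference was 0.74 without double knockout replicate 1. For the 6 genes that entered through that library the fitted differences are a description, given without p-values. They were 3.13 ± 0.78 for Adgre1, 3.31 ± 1.53 for C1qa, 3.97 ± 1.40 for C1qb, 3.52 ± 1.40 for C1qc, 2.65 ± 1.13 for Mrc1 and 3.34 ± 1.27 for Cd5l (log2, SE). Cd68 and Csf1r were called in each of 11 other settings and with each of 5 libraries left out in turn, with adjusted p from 0.000693 to 0.145 for Cd68 and from 9.37e-05 to 0.132 for Csf1r.

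The low MEP values fell in whole steps and could be read as fragments for 8 of the 9 genes, all but Cd68. All 71 MEP values under 100 fragments came within 0.1 of a whole number. C1qa, C1qb and C1qc together had 10, 15 and 8 fragments in WT replicates 1 to 3, 14, 31 and 14 in Dnmt3a-/-, 3 and 6 in Bcor-/- and 18 in double knockout replicate 2. Exact Poisson limits at 95%, which cover counting error only, were 0.619 to 8.77 and 2.202 to 13.1 in Bcor-/- and 3.45 to 15.8 in WT replicate 3. They overlapped, but they are not scaled for depth, and overlap does not decide whether the counts differ. Scaled to the depth of WT replicate 1, WT gave 10, 10.4 and 5.69, Dnmt3a-/- 11.5, 22.7 and 12.7, Bcor-/- 2.09 and 3.72 and double knockout replicate 2 16.3. Each of C1qa, C1qb and C1qc was lower in both Bcor-/- libraries than in every WT library, as were 16.1% of the MEP genes tested.

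**Figure D4:**
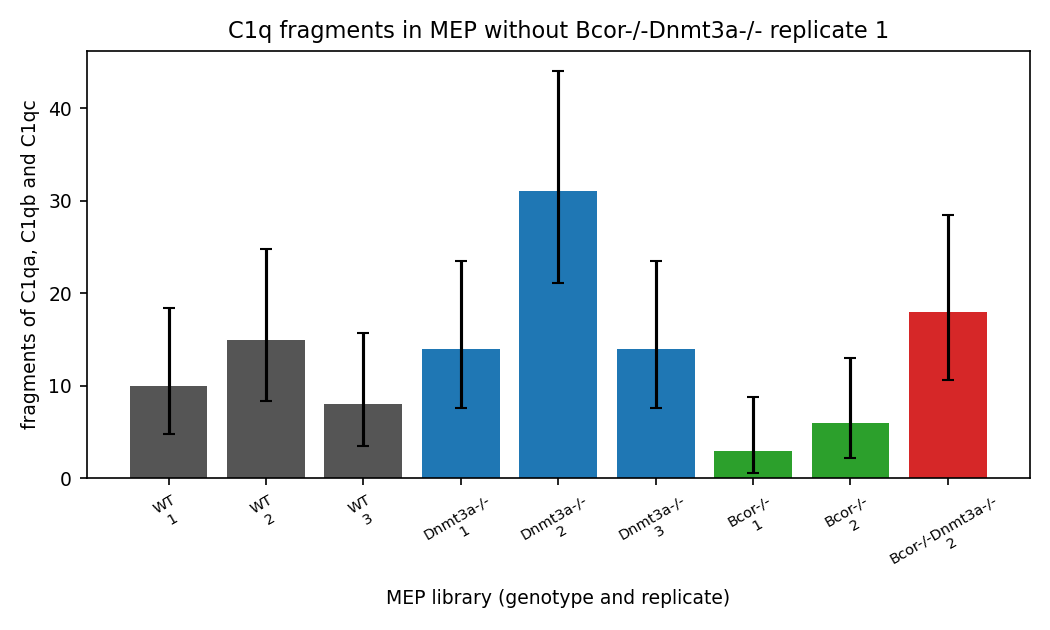
Summed fragments of C1qa, C1qb and C1qc in the 9 MEP libraries other than Bcor-/-Dnmt3a-/- replicate 1, not scaled for depth, with exact 95% Poisson intervals. The sums run from 3 in Bcor-/- replicate 1 to 31 in Dnmt3a-/- replicate 2.

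Loss of Dnmt3a alone gave no call by limma among the 9 genes, where 0.412% of MEP and 0.443% of LSK genes were called. In MEP, C1qc, Vcam1 and Mrc1 were higher in all 3 Dnmt3a-/- libraries than in every WT library, as were 5.12% of the genes tested. Vcam1 had 25, 39 and 41 fragments in Dnmt3a-/- and 11, 9 and 9 in WT, and differed by 0.91 ± 1.04 (log2, SE, limma adjusted p = 1). With the double knockout libraries left out and no filter, a setting added after the data were seen, the difference was 0.91 ± 0.17 (SE, limma adjusted p = 0.6499), which passed the unadjusted threshold but not the adjusted one. In LSK the 9 differences ran from -1.55 (C1qc) to -0.50 (Csf1r) on the log2 scale. Only Cd68, at -0.56 ± 0.24, had an unadjusted limma p under 0.05 (0.0476, adjusted p = 1), with a fold below the threshold.

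Loss of Bcor alone gave no call by limma either, where 2.76% of MEP and 13.2% of LSK genes were called. In the fit to all libraries, 0 of the 9 had an unadjusted p under 0.05 in either cell type. In LSK, C1qa differed by 1.05 ± 1.40, C1qb by 1.16 ± 1.41, C1qc by 1.18 ± 1.35 and Cd68 by -0.05 ± 0.27 (log2, SE). Vcam1, higher in both Bcor-/- LSK libraries than in every WT library as were 27.1% of the genes tested, differed by 1.898 ± 1.11 (SE, limma adjusted p = 0.328). Neutrophil markers summed to 17767 and 25359.6 FPKM in Bcor-/- LSK, monocyte markers to 922 and 1197 FPKM, T and NK cell markers to 455 and 619 FPKM and erythroid markers to 898 and 1368 FPKM, each above every WT sum. The median difference of the list from WT was -0.10 and -0.06 (log2) for monocyte and -0.14 and -0.31 for T and NK cell markers, so these sums do not stand for most of their genes. The part of these cells was not tested. In MEP the differences ran from -0.47 (C1qa) to 0.57 (Csf1r). The spread in these fits took in the double knockout libraries, which differed widely from each other for most of these genes. In the setting without those libraries and without a filter, added after the data were seen, only C1qc in MEP had an unadjusted limma p under 0.05. It was 0.016 (adjusted p = 0.281), with a fold below the threshold and few fragments.

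Other genes of resident macrophages were compared between the double knockout mice. From a list of red pulp and erythroblastic island macrophage genes, 8 of 11 tested in LSK and 8 of 11 in MEP were more than 2-fold higher in replicate 1 than in replicate 2, and 0 were lower. Of all genes tested 8.32% in LSK and 12.1% in MEP were higher by that much, 10.6% and 11.8% were lower, and the median difference was -0.01 and 0.03 on the log2 scale. In MEP 4 of the 11 genes passed the filter only through replicate 1, so that no weight is given to the MEP count. The LSK counts of this list and of those below repeat the contrast by which the 9 genes were chosen. They are a description, and no weight is given to them. Cd163, the receptor for haptoglobin and haemoglobin, was at 127 and 2.23 FPKM in the double knockout LSK libraries and 4.96 to 12.1 FPKM in WT. Siglec1, which encodes CD169, was at 55.2 and 0.865 FPKM against 0.428 to 5.07 FPKM, and Spic, a transcription factor of red pulp macrophages, at 39.2 and 0.614 FPKM against 2.66 to 10.96 FPKM. Of genes for the uptake of dying cells, 10 of 13 in LSK and 6 of 9 in MEP were higher in replicate 1 by that much, with 0 and 1 lower, beside the same 8.32% and 12.1% of all genes. Of these lists of 13 and 9 genes, 3 and 4 passed the filter only through replicate 1, which bears on both counts. Axl, a receptor for dying cells, was at 80.3 and 4.52 FPKM and Mertk, its relative, at 17.2 and 0.397 FPKM in double knockout LSK.

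Broader phagocyte genes were split. Of 26 further macrophage core genes in LSK, 11 were over 2-fold higher in double knockout replicate 1 and 4 in replicate 2, beside 8.32% and 10.6% of all genes. Ms4a7, a macrophage surface gene, was at 14.97 and 0.202 FPKM, while Cybb, a subunit of the phagocyte oxidase, was at 47.9 and 173 FPKM and Ctsl, a lysosomal protease, at 42.3 and 194 FPKM. In MEP, limma called 15 of the 21 core genes tested higher in the double knockout and 10 of 17 without replicate 1, where 18.5% and 23% of all MEP genes tested were called higher. Of the 21, 4 passed the filter only through replicate 1, which bears on the count of 15. Lgmn, a lysosomal protease, rose by 4.87 ± 0.46 (log2, SE, limma adjusted p = 0.000433), at 136 and 37.3 FPKM against 1.21 to 1.93 FPKM in WT. Cybb rose by 4.39 ± 0.36 (SE, limma adjusted p = 0.000376). For the red pulp list the counts were 5 of 11 and, without replicate 1, 2 of 7 with 2 others called lower, and for the uptake list 6 of 9 and 1 of 5. Without replicate 1 the counts of both lists are near the 23% of all genes.

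Few other complement components passed the filter, 7 of 23 in LSK and 6 in MEP. The filter was met only through double knockout replicate 1 by 1 of them in LSK and by 2 in MEP. C4b, C6 and Cfp were more than 2-fold higher in double knockout replicate 1 than in replicate 2 in both cell types, beside 8.32% and 12.1% of all genes. Lower by that much were C3 and C8g in LSK and C3 and C1rl in MEP, beside 10.6% and 11.8%. C4b, which acts after C1q in the classical pathway, was at 66.5 and 4.59 FPKM in double knockout LSK and 0.463 to 0.8802 FPKM in WT. C6, of the membrane attack complex, was at 31.5 and 0.755 FPKM against 0 to 0.0715 FPKM, and Cfp, or properdin, at 107 and 14.7 FPKM against 20.96 to 43.1 FPKM. C3, the central component, had the opposite order, at 18.7 and 40.3 FPKM, and in MEP it rose by 3.32 ± 0.55 (log2, SE, limma adjusted p = 0.00313). C1ra, a protease that C1q binds, was at 3.13 and 2.42 FPKM in double knockout LSK, below the 5.65 to 7.47 FPKM of WT. Of complement receptors and regulators, 2 of 12 in LSK were higher in replicate 1 by more than 2-fold and 2 lower, beside 8.32% and 10.6% of all LSK genes, with Vsig4, a complement receptor of resident macrophages, at 23.8 and 1.599 FPKM against 0 to 0.692 FPKM in WT. Of the 12, 2 passed the filter only through replicate 1, Vsig4 among them.

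Of the CSF1 axis, 1 of 11 genes in LSK, the ligand Csf1, was over 2-fold higher in double knockout replicate 1, beside 8.32% of all genes, and 4 were lower, beside 10.6%. Csf1 was at 13.2 and 4.45 FPKM in double knockout LSK against 2.002 to 3.94 FPKM in WT, and at 9.43 and 0.781 FPKM in MEP against 0 to 0.439 FPKM. In MEP limma called 5 of 10 genes of the axis higher, and 5 of 9 without replicate 1, beside 18.5% and 23% of all genes. Of the 10, 1 passed the filter only through replicate 1, which bears on the first count. Spi1, which encodes PU.1, rose in MEP by 1.79 ± 0.55 (log2, SE, limma adjusted p = 0.0375), while in LSK it was at 72.1 and 72.3 FPKM, below the 79.5 to 83.5 FPKM of WT. Itga4 and Itgb1, the chains of the VCAM1 receptor, ran from 42.9 to 68.8 and from 81.4 to 103 FPKM over the LSK libraries. Itga4, and not Itgb1, was higher in both double knockout LSK libraries than in every WT library, as were 25.5% of the genes tested. Of 6 genes of VCAM1 partners and related adhesion, 3 were called higher in MEP, beside the same 18.5%. They were the chains of the integrin LFA-1 and its ligand, and not the VCAM1 receptor chains Itga4, Itgb1 and Itgb7. Itgal differed by 1.86 ± 0.38, Itgb2 by 1.83 ± 0.24 and Icam1 by 1.48 ± 0.39 (log2, SE, limma adjusted p = 0.00727, 0.00132 and 0.0205).

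Markers of other cells differed between the double knockout mice, and only some had the order of the 9 genes, with replicate 1 the higher. B cell markers summed to 3439.8 and 1276 FPKM in double knockout LSK and 42.4 to 101 FPKM in WT, and to 2809 and 146 FPKM against 30.5 to 174 FPKM in MEP. Vpreb1 and Igll1, which encode the surrogate light chain of pre-B cells, were at 878 and 1.88 and at 996 and 1.604 FPKM in the double knockout LSK libraries. Ms4a1, on the same list, had the opposite order in LSK, at -2.82 (log2) for replicate 1 against replicate 2. The list medians in LSK were 6.24 and 4.32 (log2) from WT. Monocyte markers had the opposite order of mice, 332 and 1425 FPKM in LSK against 232 to 666 FPKM in WT, and 284 and 1154 FPKM in MEP against 36.4 to 71.1 FPKM. Dendritic cell markers summed to 2087 and 4765 FPKM in double knockout LSK and 358 to 909 FPKM in WT, with list medians of 0.10 and 2.35 (log2) from WT. In MEP they summed to 1115 and 476 FPKM against 270.0 to 454 FPKM, where the class II genes H2-Ab1 (265 and 65.2 FPKM) and H2-Aa (338 and 109 FPKM) had the order of the 9 genes and Siglech (0.803 and 19.7 FPKM) and Itgax (6.40 and 15.5 FPKM) the opposite. Neutrophil markers summed to 8741 and 8819.9 FPKM in double knockout LSK, and to 7136 and 16102 FPKM against 331 to 794 FPKM in MEP. Erythroid markers summed to 6579 and 21480.3 FPKM in double knockout LSK against 463 to 610.4 FPKM, and to 6011 and 72714 FPKM in MEP against 5016 to 7167 FPKM. In MEP Hbb-b1, a gene of this list, was 10.9 higher (log2) in replicate 1 than in replicate 2, while Hba-a1, Alas2 and Slc4a1 were lower. In LSK the same difference of Hbb-b1 was -2.13. Of the 11 erythroid markers, 1 was at 0 FPKM in MEP replicate 2, so no weight is given to the MEP difference of Hbb-b1. Stromal markers summed to 2.89 and 143 FPKM in double knockout LSK against 26.02 to 30.7 FPKM, with Col3a1, Pdgfra and Dcn at 0 in replicate 1, and to 0.745 and 20.9 FPKM against 2.98 to 5.85 FPKM in MEP. T and NK cell markers summed to 123 and 366 FPKM in double knockout LSK against 215 to 241 FPKM in WT. Of the 8 tested in LSK, 7 in each double knockout library were above every WT library. The low sum of replicate 1 therefore does not stand for most of these markers. Their LSK list medians were above WT in both libraries, with replicate 2 the higher. In MEP they summed to 114 and 222 FPKM against 37.4 to 69.8 FPKM. Their MEP list medians of 2.25 and 1.31 (log2) from WT had the order of the 9 genes. In MEP that order was also seen in the sums of endothelial markers, 56.98 and 16.6 FPKM against 13.5 to 23.4 FPKM, and of eosinophil, basophil and mast cell markers, 71.2 and 34.3 FPKM against 7.93 to 27.5 FPKM, but not in their medians. Of the 8 B cell markers tested in LSK, 8 in double knockout replicate 1 and 6 in replicate 2 were above every WT library. Of the 8 monocyte markers tested in LSK, 2 in double knockout replicate 1 and 8 in replicate 2 were above every WT library. Of all LSK genes tested, 40.8% in replicate 1 and 42.1% in replicate 2 were above every WT library. The part of these cells in the levels of the 9 genes was not tested.

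**Figure D5:**
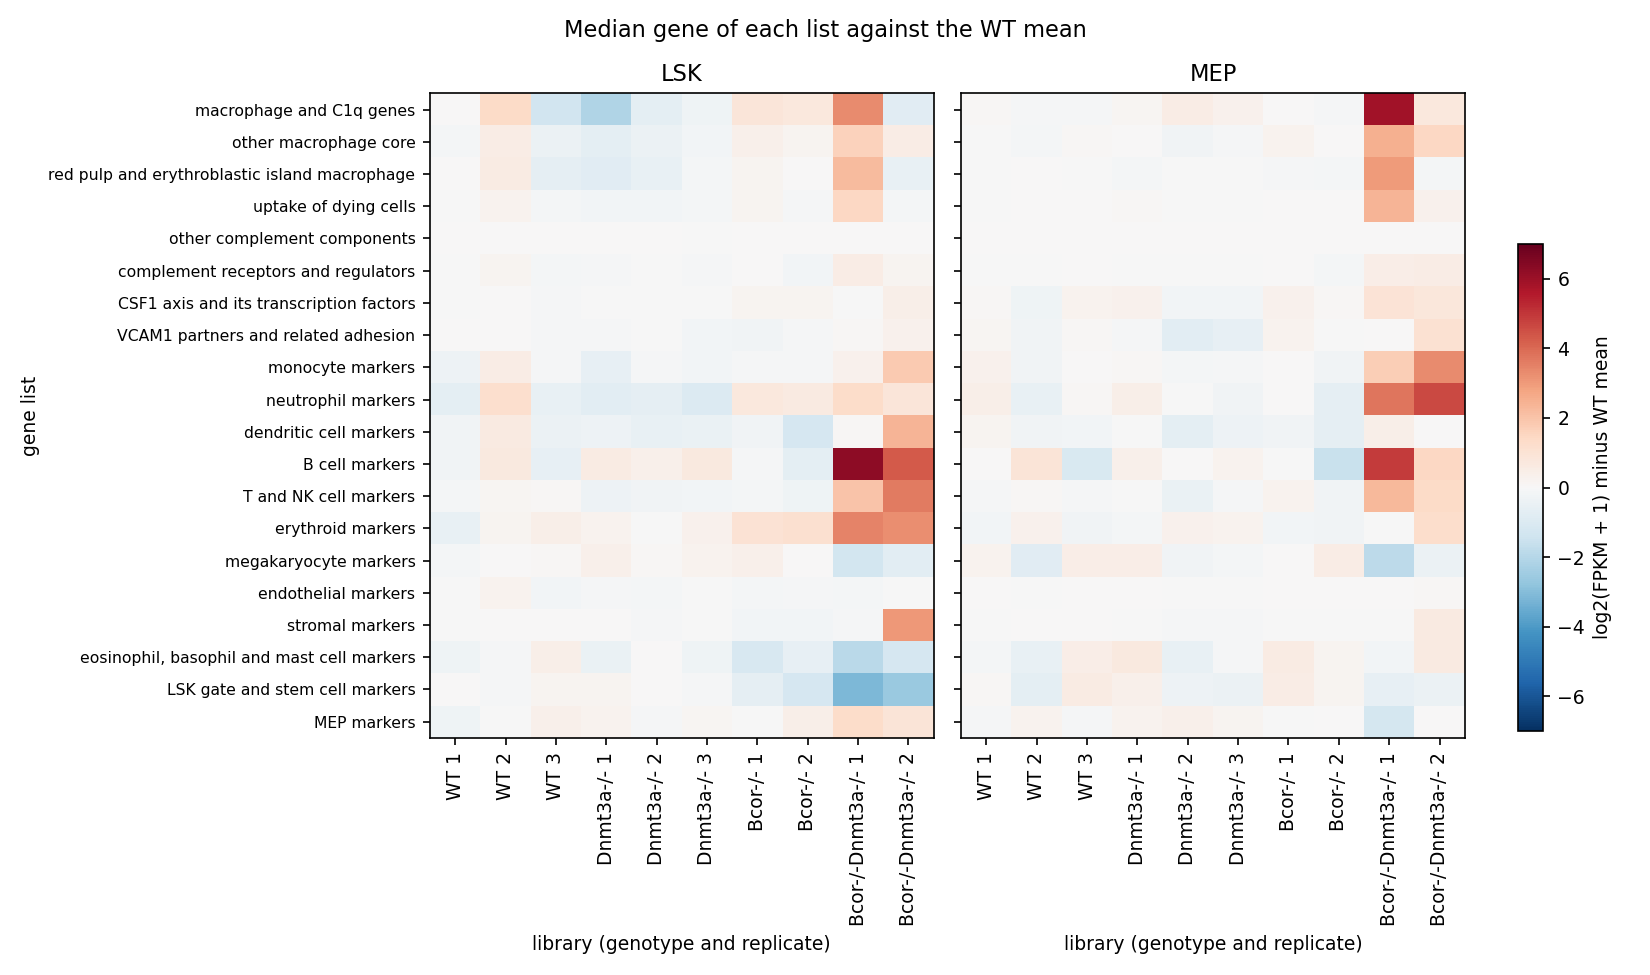
Median over the genes of each list of log2(FPKM + 1) minus the WT mean, for every library of LSK and MEP, in a colour scale from blue (below WT) to red (above). The macrophage and C1q genes stand at 3.30 in Bcor-/-Dnmt3a-/- replicate 1 and -0.80 in replicate 2 in LSK, and the monocyte markers at 0.28 and 1.83.

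The genes nearest to C1q in pattern over the 20 libraries were found by the root mean square difference of log2(FPKM + 1) from the mean of the 3 chains, each gene relative to its WT mean in the same cell type. Among 11943 other genes the median difference was 2.03, and the nearest was Fcna, a ficolin of macrophages, at 0.378. Fcna was at 15.5, 46.6 and 5.502 FPKM in WT, 2.74, 7.75 and 15.97 FPKM in Dnmt3a-/-, 40.8 and 30.1 FPKM in Bcor-/-, and 163 and 5.08 FPKM in the double knockout in LSK. Next came Hpgd (0.792), which degrades prostaglandins, Axl (0.796), Siglec1 (0.813), the chemokine receptor Ccr3 (0.832), the syndecan Sdc3 (0.852), the haem oxygenase Hmox1 (0.8596) and the lectin Clec4a1 (0.898). Of these 8, Fcna, Axl, Siglec1 and Hmox1 were on the macrophage lists used here. Measured alike, Cd5l lay at 0.369, Mrc1 at 0.538, Vcam1 at 0.632 and Adgre1 at 0.706, Csf1r at 1.02 with 20 other genes nearer and Cd68 at 1.45 with 234 nearer. The 8 genes were picked for this likeness, so their order of libraries is no further result.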

How the data were processed

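RNA-seq of LSK and MEP cells gave 20 libraries, 10 for each cell type. The authors deposited 1 table of FPKM values for each cell type, made from read alignments and, per the submitters' processing notes, with STAR 2.5.1b, SAMtools 1.9, Cufflinks 2.2.1 and the mouse build mm9. FPKM is scaled within each library, so a large change in a few abundant genes shifts the rest. Genes averaging 1 FPKM or more across a table were tested (11952 in LSK, 10933 in MEP) with limma 3.58.1 in R 4.3.3, with a mean-variance trend, on log2(FPKM + 1), which understates the change of low genes. A call needed a p below 0.05 before adjustment together with a change of over 1.5-fold, and Benjamini-Hochberg adjusted p-values over all genes are given beside it. The p-values measure only the spread between these libraries. Whole fragments were recovered from the steps of low FPKM values for description only. The fit was also run on simulated data, in which both double knockout libraries had the spread of the other genotypes. Changes were added there only to genes well above the floor in WT. That run therefore does not bear on genes that differ between the double knockout mice or lie near the floor. The 9 genes and the gene lists were chosen with earlier results of these data known. List genes named in the text were those with the largest difference among the called genes of a list, or between the double knockout libraries, and several others were named after their values were seen. Alternatives were other normalizations, filters, pseudocounts and variance models, a replicate block, fewer genotypes and each library left out.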

Additional observations from a re-analysis of the deposited data

Results flagged for a closer look

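For some of the 9 genes every mutant library lay on one side of the WT mean in LSK and every mutant library on the other side in MEP. The LSK difference minus the MEP difference, both mutant minus WT on the log2(FPKM + 1) scale, was 1.529 for C1qa, 1.55 for C1qb, 1.638 for C1qc and -0.1581 for Cd68 in Bcor-/- mice. In Dnmt3a-/- mice it was -2.074 for C1qc, -1.11 for Mrc1, -1.066 for Adgre1 and -1.635 for Cd5l. The tables were normalized separately, the MEP levels of all but Cd68 rest on few fragments, and these differences were not tested.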

How the results depend on the processing

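In MEP, the double knockout gave 8 of the 9 genes called against WT. The count was 3 with adjusted p-values, 3 when only the compared genotypes were fitted and 5 with the replicate number as a block. Leaving out 1 library in turn gave 3 to 9, with 5 without WT replicate 1 or 2, 4 without WT replicate 3, and 3 of 3 tested without double knockout replicate 1. The deviations of same-numbered libraries from their group means had correlations of -0.06 to 0.09 in LSK and -0.19 to 0.34 in MEP over 13 pairs each. In groups of 2 libraries the deviations mirror each other, so these pairs are not independent. Whether same-numbered libraries share a batch cannot be decided from them. The loss of Bcor in LSK went from 0 calls to 1 (Vcam1) with 1 variance per genotype and with only the compared genotypes. The loss of Dnmt3a in LSK gave 0 to 1 calls with a library left out, the 1 being Cd68 without WT replicate 3 or Dnmt3a-/- replicate 3. The loss of Dnmt3a in MEP went from 0 calls to 1 (Vcam1) with 1 variance per genotype, with only the compared genotypes (2 genes tested), and with no double knockout libraries and no filter, the last chosen after seeing the data. Cd68 was the 1 gene with both LSK double knockout libraries above WT, and leaving out a library gave 1 to 9, with 2 without WT replicate 2 and 9 without double knockout replicate 2.

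In LSK the double knockout differences, which have no test, ran without replicate 1 from -1.82 (Mrc1) to 0.90 (Cd68) on the log2 scale. They turned from above to below 0 for the 7 genes other than Cd68 and Csf1r. In the tested comparisons the differences that changed sign were all uncalled. With a library left out, the log2 difference ran from -0.23 to 1.14 for Cd5l, -0.31 to 0.21 for Cd68 and -0.11 to 1.37 for Mrc1 in Bcor-/- LSK, from -0.090 to 0.043 for Adgre1, -0.21 to 0.11 for Cd5l, -0.20 to 0.29 for Cd68 and -0.11 to 0.0051 for Mrc1 in Bcor-/- MEP, and from -0.38 to 0.027 for Csf1r in Dnmt3a-/- MEP. Quantile normalization gave Adgre1 0.051 in Bcor-/- MEP. Where no library or group was left out, the cause of a change was not tested. The double knockout rests on 2 mice, and the MEP values of most of the genes outside its replicate 1 on few fragments.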
